A study of Homo sapiens with 16 samples.

Results

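The stretch of chromosome 13 from 30 Mb to the end of its long arm was examined in MDA-MB-231 cells, an established human breast cancer line of mesenchymal character. Its genes were selected on measured values: in earlier readings of the same data, many of them had a higher level in BMAL1 knockout cells than in wild-type cells. The members were the 1084 gene rows of 60658 whose locus starts in that stretch on build hg38, with 8 genes left out by name. The comparison between wild type and knockout therefore chose the members, and its values are given as a description with no test of their own.

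RNA sequencing had been done on 16 samples in 8 groups of 2 biological replicates. The groups were wild-type cells (WT) and BMAL1 -/- cells (KO), each as untreated control, with cisplatin, with doxorubicin or with tunicamycin. Cisplatin crosslinks DNA, doxorubicin poisons topoisomerase II and intercalates into DNA, and tunicamycin blocks N-linked glycosylation and so stresses the endoplasmic reticulum. Cells were used at passage 10 to 15. The sources used here name no dose or time and do not say whether the knockout was 1 clone or a pool. The knockout and anything else that separates the KO from the WT population therefore cannot be told apart. DNA copy number was not measured in the files used here, and a difference in gene dosage was not tested.

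Chromosome 13 is an acrocentric chromosome with few genes for its size, nearly all of them on the long arm, and it carries the retinoblastoma gene RB1 in band q14, which is lost in several tumour types. When a cell gains or loses a chromosome segment, the RNA of many genes on it moves by a like factor, whatever the genes do. BMAL1, whose gene symbol is ARNTL, pairs with CLOCK and drives circadian transcription from E-box elements, whose canonical form is CACGTG, near the promoters of its targets.

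Because a run of neighbouring genes was read together, their promoters were searched for clock elements in RefSeq sequence on GRCh38.p14, which shares its chromosome coordinates with hg38. The 250 bases before the start are shown for 3 genes on the plus strand that were higher in KO cells in every treatment and differ in how many canonical E-boxes they hold. LAMP1 (chr13:113296989-113297238) encodes a major lysosomal membrane protein and holds 5, CDC16 (chr13:114234647-114234896) encodes a subunit of the anaphase-promoting complex and holds 1, and TFDP1 (chr13:113584503-113584752) encodes the DP1 partner of E2F factors and holds 0. The capitals mark CACGTG.
LAMP1: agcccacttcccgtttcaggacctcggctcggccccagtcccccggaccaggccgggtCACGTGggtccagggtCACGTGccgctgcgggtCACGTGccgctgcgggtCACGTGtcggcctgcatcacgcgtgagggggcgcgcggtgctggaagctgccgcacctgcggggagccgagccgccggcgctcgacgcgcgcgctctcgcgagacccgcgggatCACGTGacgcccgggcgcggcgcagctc
CDC16: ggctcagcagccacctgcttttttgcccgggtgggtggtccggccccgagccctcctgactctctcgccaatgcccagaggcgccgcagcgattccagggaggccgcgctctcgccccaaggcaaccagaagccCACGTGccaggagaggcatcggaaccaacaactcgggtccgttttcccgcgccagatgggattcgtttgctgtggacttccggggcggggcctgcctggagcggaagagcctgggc
TFDP1: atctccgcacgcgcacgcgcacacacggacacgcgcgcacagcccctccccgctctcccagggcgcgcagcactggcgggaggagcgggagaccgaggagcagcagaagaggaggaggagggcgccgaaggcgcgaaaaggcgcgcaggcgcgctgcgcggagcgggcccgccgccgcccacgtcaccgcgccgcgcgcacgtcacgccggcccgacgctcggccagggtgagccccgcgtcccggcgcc

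Of the 142 members with readable levels in every treatment, 116 had a promoter of 300 bases in the RefSeq table, 5 of them found through an older symbol. CACGTG, which reads the same on both strands, was present in 12 of these 116 promoters, or 10.3%, against 10.6% of 7049 promoters of readable genes elsewhere and 7.43% of all 27305 promoters. The variant CACGTT, searched on both strands, was present in 14, or 12.1%, against 5.89% of the readable genes elsewhere and 5.27% of all promoters. These 14 include MZT1 with BORA and DIS3 with PIBF1, named here because the promoters of each pair overlap. A single site may thus be counted for both genes of a pair, and the difference in share was not tested. The D-box TTATGTAA, also searched on both strands, was present in 2, or 1.72%, against 0.34% of the readable genes elsewhere and 0.912% of all promoters. In the 250 bases before the start alone, CACGTG was in 9.48% of the segment promoters. A match of letters is not a measured binding site.

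The targeted gene ARNTL lies on chromosome 11 and had FPKM values (fragments scaled by transcript length and sequencing depth) of 5.67 in WT and 0.889 in KO in untreated cells, 1.26 in WT and 0.941 in KO under cisplatin, 1.31 in WT and 0.474 in KO under doxorubicin and 3.25 in WT and 2.24 in KO under tunicamycin. In the authors' deposited table it was called lower in untreated KO cells (q = 0.00021) and under doxorubicin (q = 0.0051), and it was not called under cisplatin (q = 0.47) or tunicamycin (q = 0.081). The KO value under tunicamycin lay above the WT values under cisplatin and doxorubicin, so the groups overlap across treatments. Of 4 genes fixed for the mesenchymal side of this line, VIM, CD44 and AXL ranged from 149 to 6640 FPKM over the 8 groups, with CD44 lower in KO cells in each treatment, and SPARC stood at 0.949 to 2.07 in WT and 8.28 or more in KO cells. Of 6 luminal or epithelial genes, ESR1 and PGR, the hormone receptors that the line lacks, stood at 0.196 or less and CDH1 at 0.349 or less. ERBB2 ranged from 7.11 to 25.5, EPCAM from 3.93 to 6.33 in WT and 1.03 to 2.07 in KO cells, and GATA3 from 0.111 to 1.63 in WT and 0.320 to 5.48 in KO cells. The 6 summed to 17.9 to 31.1 in the WT groups and 9.72 to 25.02 in the KO groups. The extraction protocol speaks of fibroblast lines. Of 7 fibroblast markers, only COL1A1 and PDGFRB reached 1 FPKM in any group, DCN was at 0 throughout, and the summed level was 1.03 to 9.06 in the WT groups and 3.87 to 15.6 in the KO groups. The 4 leukocyte markers summed to 2.03 or less. In each treatment KO cells had the higher fibroblast sum and the lower luminal sum, and the part of either in the segment's values was not tested. In such bulk samples, fewer cells of a type and less RNA per cell cannot be told apart. The tables hold 1 authors' value per group and no counts, so depth is unknown and no spread between replicates can be given.

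A member was called readable in a treatment where WT or KO cells had 1 FPKM or more. Of the 1084 members, 621 were at 0 in all 8 groups, 256 were above 0 somewhere without reaching 1 FPKM, 65 were readable in some treatments only and 142 in every treatment. The last number comprises 123 protein-coding genes, 10 long noncoding RNAs and 6 pseudogenes among others, and 92 of the 142 rows share their locus with another row, so that reads of overlapping genes may be split between them.

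Among readable members the median KO over WT ratio was 1.67 in untreated cells (184 genes), 2.19 under cisplatin (184 genes), 1.83 under doxorubicin (154 genes) and 2.06 under tunicamycin (190 genes). On the log2 scale these medians were 0.74, 1.13, 0.87 and 1.04. Genes of all other chromosomes had medians of 0.00, 0.02, 0.03 and 0.04, and genes on chromosome 13 before the segment had -0.05, 0.21, 0.08 and 0.18. The first 30 Mb of chromosome 7, chosen for comparison with its values known, had -1.14, -1.18, -0.97 and -1.19. By its median, chromosome 13 ranked 1 of 23 chromosomes in every treatment, and the other 22 lay between -0.41 and 0.25.

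The whole distribution was displaced and not only its tail. The ratio was above 1 in 86.4% of readable members in untreated cells, 85.9% under cisplatin, 85.7% under doxorubicin and 88.4% under tunicamycin, against 50.4%, 51.3%, 52.1% and 53% of genes on other chromosomes. A ratio between 1.5 and 3 was found for 57.3%, 58%, 57.5% and 67.9% of readable members with a ratio, against 11.9%, 9.25%, 13.3% and 8.83% elsewhere. The interquartile range of the log2 ratio was 0.68, 0.85, 0.93 and 0.60 in the segment and 0.76, 0.65, 0.80 and 0.61 elsewhere. Over all readable genes, the segment varied more under cisplatin and doxorubicin, less in untreated cells and about as much under tunicamycin. At 20 FPKM or more its range was the smaller in every treatment, as given below. Under doxorubicin its wider range was found only between 1 and 5 FPKM.

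**Figure D1:**
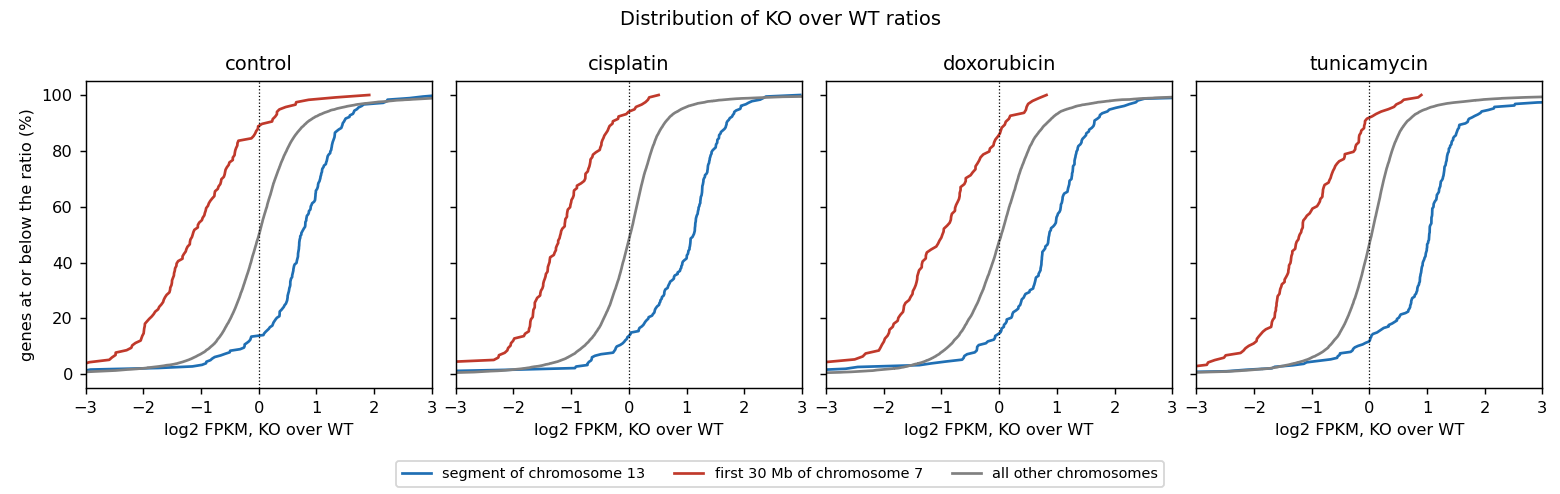
Cumulative share of genes (y axis, percent) at or below a log2 KO over WT FPKM ratio (x axis), in 1 panel per treatment, for readable genes of the chromosome 13 segment (blue), the first 30 Mb of chromosome 7 (red) and all other chromosomes (grey). The blue curve lies to the right of the grey one over most of its height, and the dotted line at 0 is crossed by the grey curve near 50% in every panel.

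The spread narrowed with level, in the segment and on other chromosomes. Members with 20 FPKM or more in WT or KO cells had interquartile ranges of 0.54 in untreated cells, 0.39 under cisplatin, 0.56 under doxorubicin and 0.40 under tunicamycin, around log2 medians of 0.84, 1.21, 1.02 and 1.09. Members between 1 and 5 FPKM had interquartile ranges of 1.21, 1.31, 1.22 and 1.35, around medians of 0.54, 1.02, 0.66 and 0.86. On other chromosomes the interquartile ranges were 0.63, 0.51, 0.59 and 0.49 at 20 FPKM or more. Between 1 and 5 FPKM they were 1.17, 0.98, 1.04 and 0.91 there. Just inside the reading limit, the 7 to 10 members whose higher group had 1 to 1.25 FPKM had median log2 ratios of -0.17, 0.56, 0.17 and 0.02. Just outside it, the 5 to 9 members at 0.8 to 1 FPKM had 0.66, 0.43, 0.43 and 0.44.

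The authors' deposited table for each treatment holds the Cuffdiff tests, called here at q of 0.05 or less. In untreated cells 129 of 184 tested members were called higher in KO cells and 10 lower, beside 22.7% higher and 21.1% lower calls over all genes. Under cisplatin 136 of 205 tested members were called higher and 13 lower, with 25.4% and 24.2% over all genes. Under doxorubicin the counts were 104 and 9 of 166, with 24.4% and 20.7% over all genes. Under tunicamycin they were 147 and 13 of 201, with 27.2% and 22.1% over all genes. As shares of the members tested, the higher calls came to 70.1%, 66.3%, 62.7% and 73.1%. The lower calls came to 5.43%, 6.34%, 5.42% and 6.47%. On chromosome 13 before the segment, 22%, 40.8%, 26.7% and 38% of 45 to 50 tested genes were called higher. There 18%, 10.2%, 15.6% and 14% were called lower. The selection used this contrast, so nothing is read from these counts beyond their size.

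Across treatments the same genes recurred. The selection used this contrast, so the recurrence only describes the members chosen. The ratio was above 1 in all 4 treatments for 110 of the 142 members readable in each (77.5%, against 24.4% of 9628 genes elsewhere), below 1 in all 4 for 7, and mixed for 25. A ratio of 1.5 or more in all 4 was found for 69 members, or 48.6%, against 3.57% elsewhere. Of 152 members tested in every treatment, 83 were called higher in all 4 (54.6%, against 8.29% of 10664 genes elsewhere) and 5 lower in all 4 (3.29%, against 8.69%). The 4 comparisons use separate libraries of the same WT and KO populations. Across 107 members with a mean of 5 FPKM or more, the log2 ratios of any pair of treatments had Pearson correlations of 0.52 to 0.77 and Spearman correlations of 0.43 to 0.67, over genes that share libraries and position and are not independent replicates.

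Summed over its members, the segment supplied 0.750% of all FPKM outside the mitochondrial genome in WT untreated cells and 1.28% in KO untreated cells. The share was 0.615% and 1.22% under cisplatin, 0.552% and 0.927% under doxorubicin, and 0.687% and 1.33% under tunicamycin. The KO share was 1.70, 1.98, 1.68 and 1.93 times the WT share. A single gene, TPT1, made up 29.9% to 40.2% of the segment's sum in each group. Without the 10 rows of highest level the KO share was still 1.69, 1.91, 1.5 and 1.81 times the WT share. The part of chromosome 13 before the segment also had a higher share in KO cells, at 1.32, 1.66, 1.49 and 1.55 times the WT share.

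Along the chromosome, 1 step in the ratio was sought, by a search that returns a step whatever the data. Its place lay before the position used to select the members in 3 treatments and inside the segment under cisplatin. It is a best split, and not every gene beyond it was higher. The step was placed where the summed distance from the median on each side was smallest. It fell between USP12 and RPL21 in untreated cells and under tunicamycin, at locus starts 27066142 and 27251309. It fell between WASF3 and USP12 under doxorubicin and between CCNA1 and RFXAP under cisplatin, at 36431520 and 36819224. With genes of 5 FPKM or more it lay at RPL21, 27251309, in all 4 treatments. RPL21 encodes a protein of the large ribosomal subunit. The stretch from RPL21 to POLR1D, up to locus start 27620742, was chosen after the values were seen. It begins at a gene that the step search returned, so the choice itself favoured high medians. Its 5 to 7 readable genes had median log2 ratios of 0.70, 0.98, 1.13 and 0.72. The whole window from 25000001 to 30000000, which also holds genes on both sides of this stretch, had lower medians. They were 0.01 in untreated cells, 0.36 under cisplatin, 0.41 under doxorubicin and 0.45 under tunicamycin.

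The genes next to the limit at 30 Mb did not share 1 pattern. Of the last 4 before it, POMP, an assembly factor of the proteasome, had FPKM values of 157 in WT and 146 in KO in untreated cells, 84.1 in WT and 153 in KO under cisplatin, 80.6 in WT and 135 in KO under doxorubicin and 62.7 in WT and 120.4 in KO under tunicamycin. SLC7A1, a cationic amino acid transporter, had 47.2 in WT and 110.4 in KO in untreated cells, 46.2 in WT and 56.1 in KO under cisplatin, 21.6 in WT and 15.4 in KO under doxorubicin and 84.6 in WT and 185 in KO under tunicamycin. POMP was level in untreated cells and higher in KO cells under each drug, while SLC7A1 was higher in untreated and tunicamycin-treated KO cells and lower under doxorubicin. The log2 ratios of SLC46A3, a lysosomal solute carrier, were -1.26, -0.96, -1.98 and -0.42, and those of UBL3, a ubiquitin-like protein, were -0.07, 0.23, -0.05 and 0.45. Just inside the limit, KATNAL1, a katanin-like microtubule severing enzyme, had log2 ratios of 0.45, -0.23, 0.43 and 0.04, and the authors' deposited table called none of them. The next genes readable in every treatment, HMGB1, HSPH1 and B3GLCT, had ratios above 1 in every treatment.

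**Figure D2:**
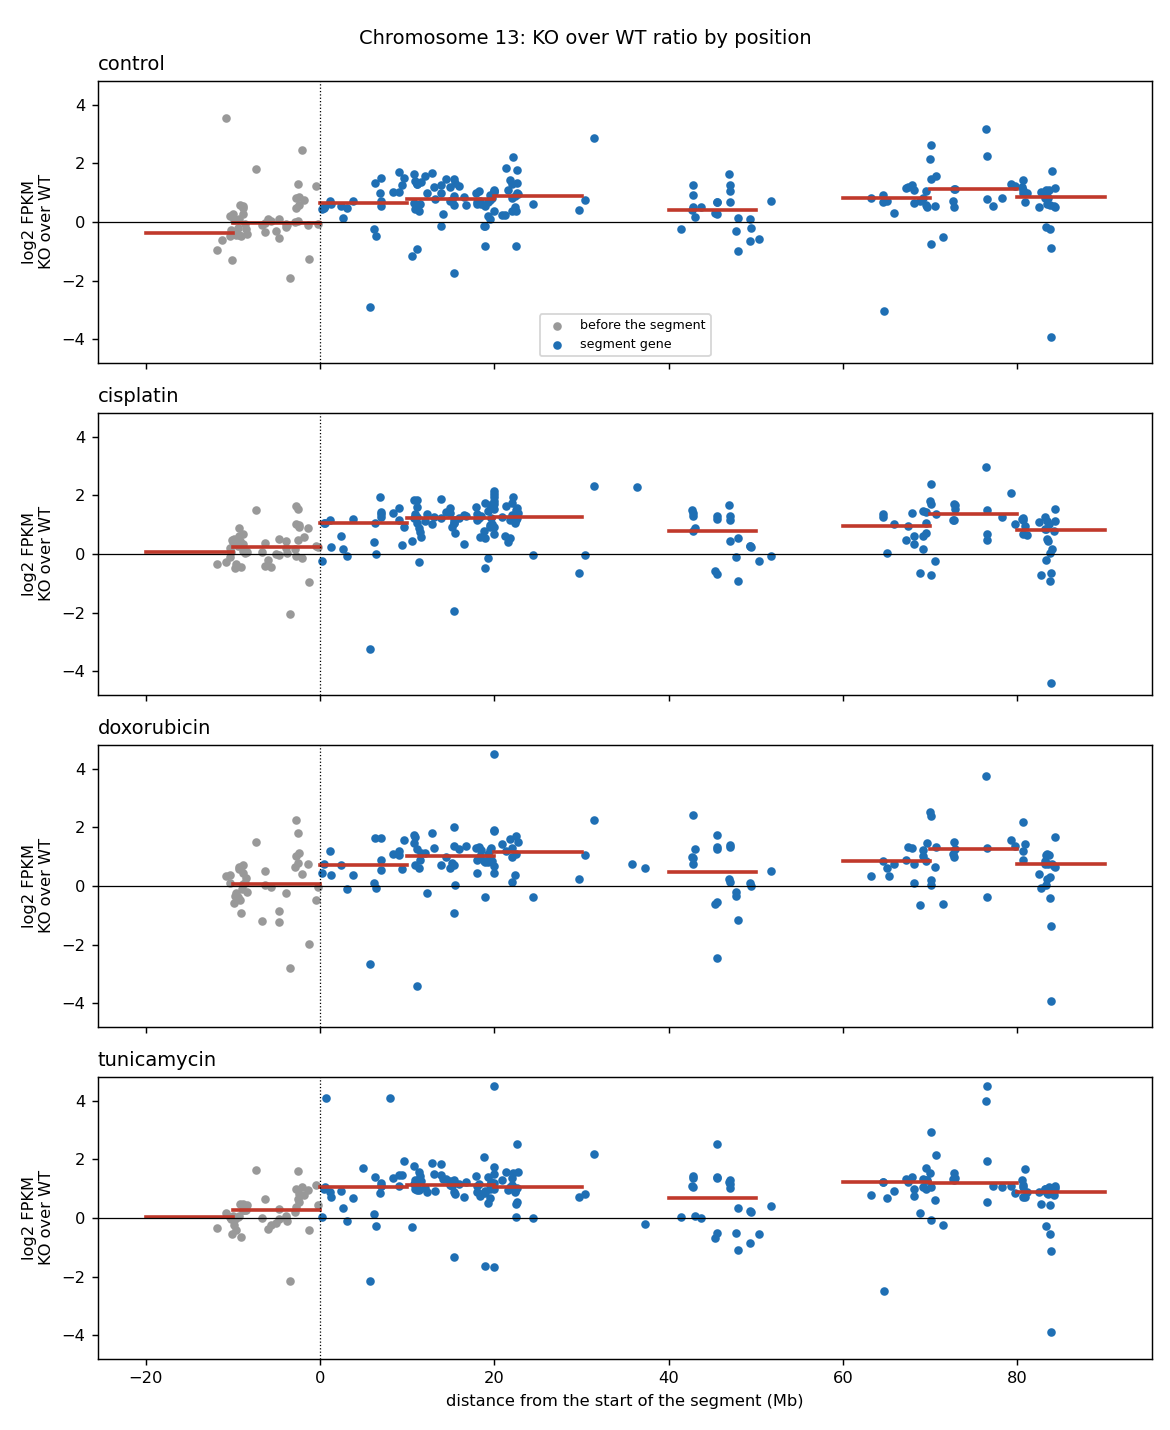
Log2 KO over WT FPKM ratio (y axis, values beyond 4.5 drawn at 4.5) of each readable gene against its distance from the start of the segment in Mb (x axis), in 1 panel per treatment, with genes before the segment in grey, segment genes in blue and the median of each 10 Mb window with 5 or more genes as a red bar. The red bars lie between -0.39 and 0.28 before the segment and above 0 in every window of the segment, with a lower bar in the window from 70 to 80 Mb of the chromosome, drawn at 40 to 50 Mb from the start.

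Within the segment the level of the ratio was not even. The following intervals were chosen after the values were seen. From KATNAL1 to CCNA1 (locus starts 30202630 to 36431520) the log2 medians were 0.48, 0.42, 0.38 and 0.73, over 11 to 15 readable genes. From RFXAP to SUGT1 (36819224 to 52652709), the stretch with the most readable members, they were 0.88, 1.24, 1.08 and 1.11, and the ratio was above 1 in 72 of 80, 80 of 84, 58 of 62 and 77 of 81 genes. From RPL13AP25 to MYCBP2 (54440704 to 77044655) the medians were 0.68, 1.17, 0.96 and 1.04, and from GPC6 to TFDP1 (93226612 to 113584721) they were 0.89, 1.05, 0.90 and 1.05. In these 3 stretches every median lay between 0.68 and 1.24.

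A short stretch and a cluster near the end of the arm departed from their neighbours. From SLAIN1 to PTMAP5 (77697854 to 81689911) the 6 to 8 readable genes had medians of -0.26, 0.08, -0.11 and -0.15. They include SLAIN1, EDNRB, RNF219, RBM26, NDFIP2 and SPRY2. From locus start 113759240 to 113888306 the 4 readable rows, GAS6, GAS6-AS2, LINC00452 and TMEM255B, had medians of -0.58, -0.79, -0.90 and -0.84. Of these rows TMEM255B, a membrane protein singled out after its values were seen, had positive log2 ratios of 0.56, 0.03, 0.29 and 0.44. Beyond that cluster the last 4 genes, RASA3, CDC16, UPF3A and CHAMP1, had medians of 0.85, 0.95, 0.71 and 1.01, with all 4 ratios above 1 in each treatment.

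Gene positions that follow are from GENCODE release 29 on GRCh38, matched by identifier. The most abundant member was TPT1 (chr13:45333471-45341370, minus strand), which encodes the translationally controlled tumour protein. It had FPKM values of 1608 in WT and 2937 in KO in untreated cells, 1272 in WT and 2671 in KO under cisplatin, 1123 in WT and 2888 in KO under doxorubicin and 1474 in WT and 3633 in KO under tunicamycin. Every KO value lay above every WT value, and the log2 ratios were 0.87, 1.07, 1.36 and 1.3. HMGB1 (chr13:30456704-30617597, minus strand), a chromatin protein that bends DNA and acts as a danger signal outside the cell, stood at 394 in WT and 549.6 in KO in untreated cells, 328 in WT and 679 in KO under cisplatin, 474 in WT and 789 in KO under doxorubicin and 278 in WT and 545 in KO under tunicamycin. Its log2 ratios of 0.48, 1.05, 0.74 and 0.97 were lowest in untreated cells. ITM2B (chr13:48232612-48270357, plus strand), a membrane protein of the secretory pathway, had WT to KO values of 105 to 219, 113 to 262, 169.5 to 428 and 95.01 to 214 in the order untreated, cisplatin, doxorubicin, tunicamycin. HSPH1 (chr13:31134974-31162388, minus strand), a chaperone of the HSP110 family, had 94.5 to 156, 88.2 to 195, 60.4 to 139 and 50.3 to 93.96 in the same order. For ITM2B the KO value was more than double the WT value in each treatment, and for HSPH1 the log2 ratio ranged from 0.72 to 1.21.

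Among genes of the cell cycle, TFDP1 (chr13:113584721-113641470, plus strand) had FPKM values of 119 in WT and 251 in KO in untreated cells, 108 in WT and 217 in KO under cisplatin, 162 in WT and 335 in KO under doxorubicin and 86.2 in WT and 178 in KO under tunicamycin. Its log2 ratios of 1.08, 1.0, 1.05 and 1.05 differed by less than 0.1 between treatments although its level changed almost 2-fold between them. RB1 (chr13:48303726-48599436, plus strand), the retinoblastoma protein that holds E2F factors in check, stood at 25.9 in WT and 42.2 in KO in untreated cells, 16.4 in WT and 24.4 in KO under cisplatin, 21.7 in WT and 43.97 in KO under doxorubicin and 19.98 in WT and 33.2 in KO under tunicamycin. Its log2 ratios of 0.7, 0.57, 1.02 and 0.73 were above 0 in each treatment and lower than the segment's median except under doxorubicin. CUL4A, the scaffold of a ubiquitin ligase for replication and repair proteins, had log2 ratios of 0.93, 1.25, 0.84 and 0.98. The mitotic spindle genes CKAP2 and MZT1 had 0.36, 1.15, 1.1 and 0.48 and 0.41, 1.51, 0.98 and 1.08, lowest in untreated cells for both. The cell cycle list had 16 tested genes per treatment, with 12 higher calls and 1 lower call in untreated cells, 13 and 1 under cisplatin, 12 and 0 under doxorubicin, and 14 and 1 under tunicamycin. For comparison, the higher calls took 70.1%, 66.3%, 62.7% and 73.1% of all tested segment genes and 22.7%, 25.4%, 24.4% and 27.2% of all genes. The lower calls took 5.43%, 6.34%, 5.42% and 6.47% of all tested segment genes and 21.1%, 24.2%, 20.7% and 22.1% of all genes. The list's log2 medians were 0.53, 0.96, 0.87 and 0.93. CCNA1, cyclin A1, had log2 ratios of -0.49, 0.01, -0.07 and -0.29 and gave the lower calls in untreated cells and under tunicamycin, while DIAPH3 gave the one under cisplatin. MIR17HG, the host gene of the miR-17-92 cluster, never reached 1 FPKM.

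None of the listed genes of RNA processing and nuclear transport was called lower in KO cells in any treatment. Lower calls were few in the whole segment too, at 5.43%, 6.34%, 5.42% and 6.47% of its tested genes. Over all genes they were 21.1%, 24.2%, 20.7% and 22.1%. IPO5 (chr13:97953658-98024297, plus strand), an importin that carries ribosomal proteins into the nucleus, had FPKM values of 92.1 in WT and 221 in KO in untreated cells, 95.6 in WT and 253 in KO under cisplatin, 121 in WT and 294 in KO under doxorubicin and 82.7 in WT and 218 in KO under tunicamycin. Its log2 ratios were 1.27, 1.4, 1.28 and 1.4, and the KO value exceeded every WT value of the gene. EXOSC8, a subunit of the RNA exosome, had log2 ratios of 0.55, 1.36, 0.53 and 1.2, and PCID2, an mRNA export factor, had 0.83, 0.85, 0.73 and 1.0. RNASEH2B, a subunit of the enzyme that removes ribonucleotides from DNA, had 0.24, 1.27, 1.43 and 1.3. Its untreated value was not called in the authors' deposited table (q = 0.28), while those under the 3 drugs were called higher. INTS6 (chr13:51354077-51454264, minus strand), a subunit of the Integrator complex, was singled out after its values were seen and had WT to KO values of 6.25 to 22.1, 9.42 to 29.1, 2.73 to 6.25 and 9.20 to 27.2 in the order given above. Of the genes on this list, 20 of 22 were called higher in untreated cells, 20 of 22 under cisplatin, 16 of 20 under doxorubicin and 22 of 22 under tunicamycin, beside 70.1%, 66.3%, 62.7% and 73.1% of the segment's tested genes and 22.7%, 25.4%, 24.4% and 27.2% of all genes. The list's log2 medians were 0.82, 1.24, 0.86 and 1.09, and those of the segment were 0.74, 1.13, 0.87 and 1.04.

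Genes of protein folding and turnover were called higher in 19 of 24, 21 of 24, 14 of 20 and 22 of 24 tested cases, in the order untreated, cisplatin, doxorubicin, tunicamycin, and none was called lower. The segment as a whole had 70.1%, 66.3%, 62.7% and 73.1% higher calls and all genes 22.7%, 25.4%, 24.4% and 27.2%. For lower calls the segment had 5.43%, 6.34%, 5.42% and 6.47% and all genes 21.1%, 24.2%, 20.7% and 22.1%. The list's log2 medians were 0.71, 1.16, 0.99 and 1.04. SUGT1, a co-chaperone of HSP90, had log2 ratios of 0.96, 1.39, 1.51 and 1.55, and UCHL3, which cleaves ubiquitin from proteins, had 0.68, 1.29, 1.27 and 1.38. ALG5 adds glucose to the lipid carrier used in N-linked glycosylation, the pathway that tunicamycin blocks further upstream. Its WT to KO values were 37.7 to 61.4, 31.7 to 75.2, 18.3 to 33.5 and 37.8 to 80.4 FPKM. The log2 ratio under tunicamycin, 1.09, lay between that of untreated cells, 0.70, and that under cisplatin, 1.24.

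Among genes of mitochondria and metabolism, 14 of 16, 14 of 16, 15 of 16 and 16 of 18 were called higher and none lower. The segment had 70.1%, 66.3%, 62.7% and 73.1% higher calls and all genes had 22.7%, 25.4%, 24.4% and 27.2%. Lower calls were 5.43%, 6.34%, 5.42% and 6.47% in the segment and 21.1%, 24.2%, 20.7% and 22.1% over all genes. The list's log2 medians were 0.94, 1.22, 1.27 and 1.21. SLC25A15 (chr13:40789412-40810111, plus strand), the mitochondrial ornithine carrier of the urea cycle, had FPKM values of 10.4 in WT and 32.4 in KO in untreated cells, 12.8 in WT and 45.2 in KO under cisplatin, 5.79 in WT and 15.8 in KO under doxorubicin and 9.86 in WT and 33.9 in KO under tunicamycin. The log2 ratios were 1.63, 1.82, 1.45 and 1.78, about 3-fold in each treatment. PCCA (chr13:100089015-100530437, plus strand), the alpha subunit of propionyl-CoA carboxylase, stood at 2.13 in WT and 13.04 in KO in untreated cells, 0.675 in WT and 3.50 in KO under cisplatin, 2.19 in WT and 11.3 in KO under doxorubicin and 1.55 in WT and 11.7 in KO under tunicamycin. Its log2 ratios of 2.61, 2.37, 2.37 and 2.91 each lay more than 1 log2 unit above the segment's median. EBPL, a relative of the sterol isomerase EBP, had log2 ratios of 0.86, 1.24, 1.28 and 1.21. ESD, an esterase that acts on S-formylglutathione, had 0.58, 1.3, 1.37 and 1.24. CARS2, the mitochondrial cysteinyl-tRNA synthetase, had 1.1, 0.69, 1.18 and 1.13. Each of these 3 was called higher in all 4 treatments.

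In the list of the lysosome, secretory pathway and membrane, there were 13 higher and 0 lower calls among 14 tested genes in untreated cells, 8 and 1 of 13 under cisplatin, 9 and 1 of 14 under doxorubicin, and 15 and 0 of 15 under tunicamycin. Higher calls made up 70.1%, 66.3%, 62.7% and 73.1% of the segment's tested genes and 22.7%, 25.4%, 24.4% and 27.2% of all genes. Lower calls made up 5.43%, 6.34%, 5.42% and 6.47% of the segment's tested genes and 21.1%, 24.2%, 20.7% and 22.1% of all genes. The list's log2 medians of 0.92, 0.72, 0.74 and 0.93 were below the segment's under the 3 drugs. LAMP1 (chr13:113297241-113323672, plus strand), whose promoter is shown above, had FPKM values of 90.7 in WT and 195 in KO in untreated cells, 112 in WT and 201 in KO under cisplatin, 183 in WT and 381 in KO under doxorubicin and 92.1 in WT and 175 in KO under tunicamycin. All 4 log2 ratios, 1.1, 0.84, 1.06 and 0.92, lay close to 1, which is a doubling. TM9SF2, a transmembrane protein of the Golgi, had log2 ratios of 0.58, 0.71, 0.86 and 1.0, and SPG20, or spartin, which acts at lipid droplets and endosomes, had 1.32, 1.06, 1.63 and 1.4. ABCC4, an efflux pump for cyclic nucleotides and drugs, had WT to KO values of 9.14 to 14.9, 2.88 to 2.94, 7.43 to 11.2 and 8.94 to 14.5. Its log2 ratio was 0.60 to 0.71 except under cisplatin, where it was 0.03 and was not called (q = 0.87 in the authors' deposited table).

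Signalling genes and transcription factors gave calls in both directions, with 16 higher and 2 lower calls of 26 tested in untreated cells, 15 and 6 of 27 under cisplatin, 11 and 3 of 19 under doxorubicin, and 16 and 4 of 27 under tunicamycin. The segment as a whole also had calls in both directions, with 70.1%, 66.3%, 62.7% and 73.1% higher and 5.43%, 6.34%, 5.42% and 6.47% lower, beside 22.7%, 25.4%, 24.4% and 27.2% higher and 21.1%, 24.2%, 20.7% and 22.1% lower over all genes. The list's log2 medians were 0.84, 0.76, 0.74 and 0.85. ELF1 (chr13:40932028-41061440, minus strand), an ETS-family transcription factor, had FPKM values of 11.96 in WT and 31.3 in KO in untreated cells, 18.02 in WT and 43.4 in KO under cisplatin, 0.742 in WT and 2.34 in KO under doxorubicin and 13.6 in WT and 33.5 in KO under tunicamycin. Its log2 ratios were 1.39, 1.27, 1.65 and 1.3 although both genotypes had far less ELF1 under doxorubicin. IRS2, an adaptor of insulin and IGF receptors, had WT to KO values of 8.92 to 21.1, 11.1 to 22.7, 0.481 to 1.23 and 9.76 to 17.4, and TSC22D1, a leucine zipper protein, had 30.3 to 83.3, 25.2 to 68.1, 4.04 to 8.01 and 22.05 to 55.8. Both genes were called higher in all 4 treatments. STK24, a kinase of the Ste20 group, had log2 ratios of 0.66, 0.61, 0.12 and 0.98. KLF5, a factor of epithelial proliferation, had 0.18, 0.89, 1.25 and 0.06, and the untreated and tunicamycin values were not called. FOXO1, a target of insulin signalling, had WT to KO values of 5.54 to 2.5, 1.13 to 1.54, 0.0151 to 0.11 and 1.51 to 1.21, was not readable under doxorubicin and was called in no treatment.

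The genes around RB1 that are often deleted together in tumours, listed as the 13q14 region, overlap the lists above. Of these, 11 of 16 tested were called higher in untreated cells, 16 of 17 under cisplatin, 14 of 15 under doxorubicin and 16 of 16 under tunicamycin, and none was called lower. The segment's shares of higher calls were 70.1%, 66.3%, 62.7% and 73.1% and those of all genes 22.7%, 25.4%, 24.4% and 27.2%. The segment's shares of lower calls were 5.43%, 6.34%, 5.42% and 6.47% and those of all genes 21.1%, 24.2%, 20.7% and 22.1%. The region's log2 medians were 0.84, 1.24, 1.21 and 1.10. Genes restricted to other tissues formed a list of 30, of which 24 or 25 were not readable in a given treatment. The 5 or 6 that were readable ranged from -3.23 to 2.84.

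**Figure D3:**
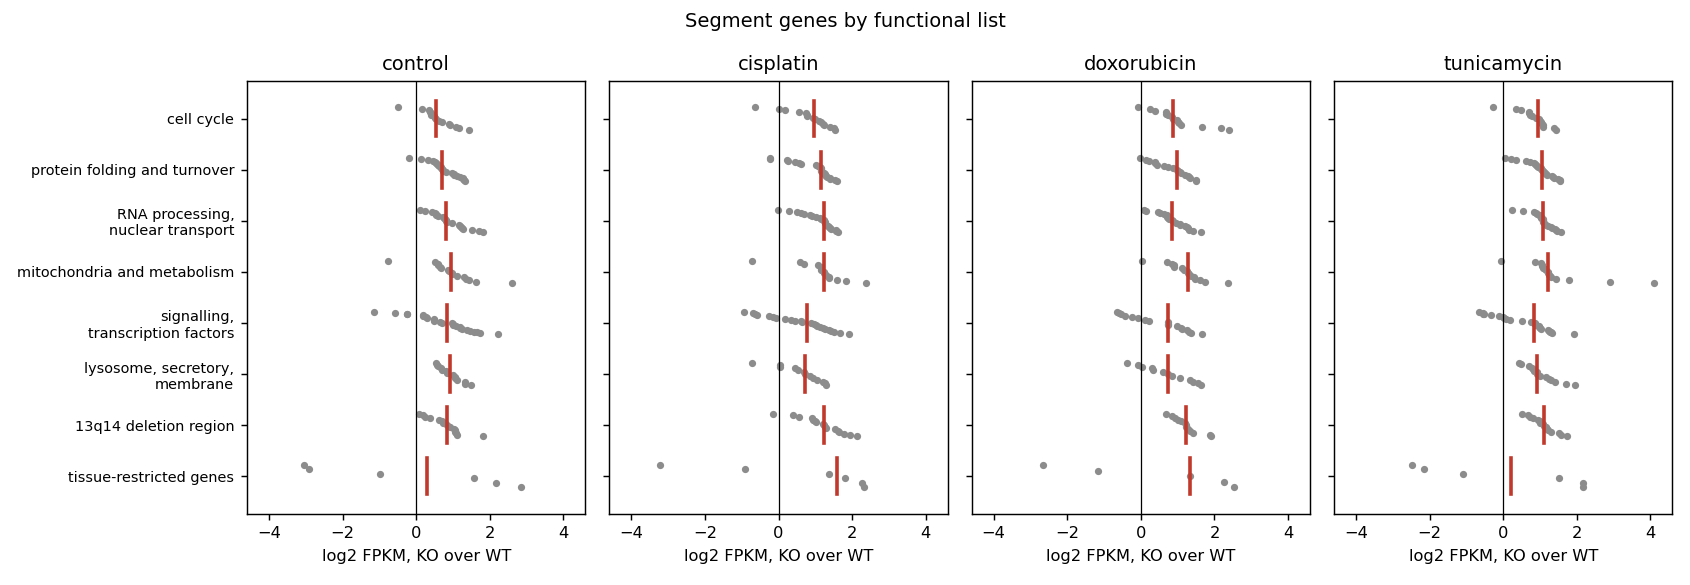
Log2 KO over WT FPKM ratio (x axis) of each readable segment gene (grey points) by functional list (rows), in 1 panel per treatment, with the list median as a red bar. The medians of the first 7 lists lie between 0.53 and 1.27, while the tissue-restricted list holds 5 or 6 genes on both sides of 0.

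By the smallest of their 4 ratios, LINC00460, PCCA, PCDH20 and ZIC2 stood highest. LINC00460 (chr13:106374477-106384315, plus strand), a long noncoding RNA, had FPKM values of 0.813 in WT and 7.26 in KO in untreated cells, 0.652 in WT and 5.10 in KO under cisplatin, 0.689 in WT and 9.15 in KO under doxorubicin and 0.565 in WT and 8.88 in KO under tunicamycin. Its log2 ratios were 3.16, 2.97, 3.73 and 3.97. It was readable through its KO values alone in every treatment, so the reading limit itself favoured a high ratio. ZIC2 (chr13:99981772-99986773, plus strand), a zinc finger transcription factor of neural development, stood at 7.91 in WT and 35.3 in KO in untreated cells, 14.8 in WT and 51.7 in KO under cisplatin, 0.357 in WT and 2.04 in KO under doxorubicin and 6.40 in WT and 18.4 in KO under tunicamycin. The log2 ratios of 2.16, 1.8, 2.52 and 1.52 each exceeded the segment's median, and the level in both genotypes was lowest under doxorubicin. PCDH20, a protocadherin, had log2 ratios of 2.84, 2.33, 2.26 and 2.17, and NALCN, a sodium leak channel, had 1.58, 1.36, 1.33 and 2.16. WT to KO values of PCDH20 were 0.542 to 3.89, 1.28 to 6.42, 0.553 to 2.64 and 0.393 to 1.76. Except under cisplatin, its KO values alone made it readable. The same held for PCCA under cisplatin and for ZIC2 under doxorubicin. LINC00460, PCCA, PCDH20, ZIC2 and NALCN were each called higher in all 4 treatments.

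Against the run of the segment, 7 members readable in every treatment had ratios below 1 throughout. DCLK1 (chr13:35768652-36131306, minus strand), a kinase that binds microtubules, had FPKM values of 9.29 in WT and 1.23 in KO in untreated cells, 5.88 in WT and 0.625 in KO under cisplatin, 6.51 in WT and 1.03 in KO under doxorubicin and 7.75 in WT and 1.76 in KO under tunicamycin. Its log2 ratios of -2.92, -3.23, -2.66 and -2.14 were the lowest of any readable gene from KATNAL1 to CCNA1. LINC00452 (chr13:113888306-113923512, plus strand) stood at 3.28 in WT and 0.215 in KO in untreated cells, 8.10 in WT and 0.387 in KO under cisplatin, 2.16 in WT and 0.143 in KO under doxorubicin and 3.19 in WT and 0.218 in KO under tunicamycin. Its log2 ratios were -3.93, -4.39, -3.92 and -3.87. It was readable through its WT values alone, so the reading limit itself favoured a low ratio. GAS6 (chr13:113820549-113864067, minus strand), the secreted ligand of the receptor AXL, stood at 118 in WT and 98.7 in KO in untreated cells, 82.8 in WT and 43.3 in KO under cisplatin, 215 in WT and 161 in KO under doxorubicin and 107 in WT and 73.2 in KO under tunicamycin. The difference was smallest in untreated cells and largest under cisplatin, with log2 ratios of -0.25, -0.93, -0.42 and -0.55. GAS6-AS2 lies beside GAS6 on the other strand and had log2 ratios of -0.91, -0.64, -1.38 and -1.13. The sources used here do not say whether counting used strand, so reads of this pair may not be told apart.

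EDNRB (chr13:77895481-77975529, minus strand), the type B receptor for endothelin, had FPKM values of 3.33 in WT and 1.69 in KO in untreated cells, 4.18 in WT and 2.22 in KO under cisplatin, 3.19 in WT and 1.42 in KO under doxorubicin and 2.71 in WT and 1.28 in KO under tunicamycin. It was called lower in all 4 treatments, with log2 ratios of -0.98, -0.92, -1.17 and -1.09. SLAIN1, a microtubule plus-end protein, had -0.32, -0.11, -0.35 and -0.51, and the pseudogene RCN1P2 had -1.74, -1.96, -0.92 and -1.33. SPRY2, an inhibitor of receptor tyrosine kinase signalling named after its values were seen, lies in the same stretch as EDNRB and had -0.58, -0.25, -0.04 and -0.56. It was under 1 FPKM in both genotypes under doxorubicin.

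**Figure D4:**
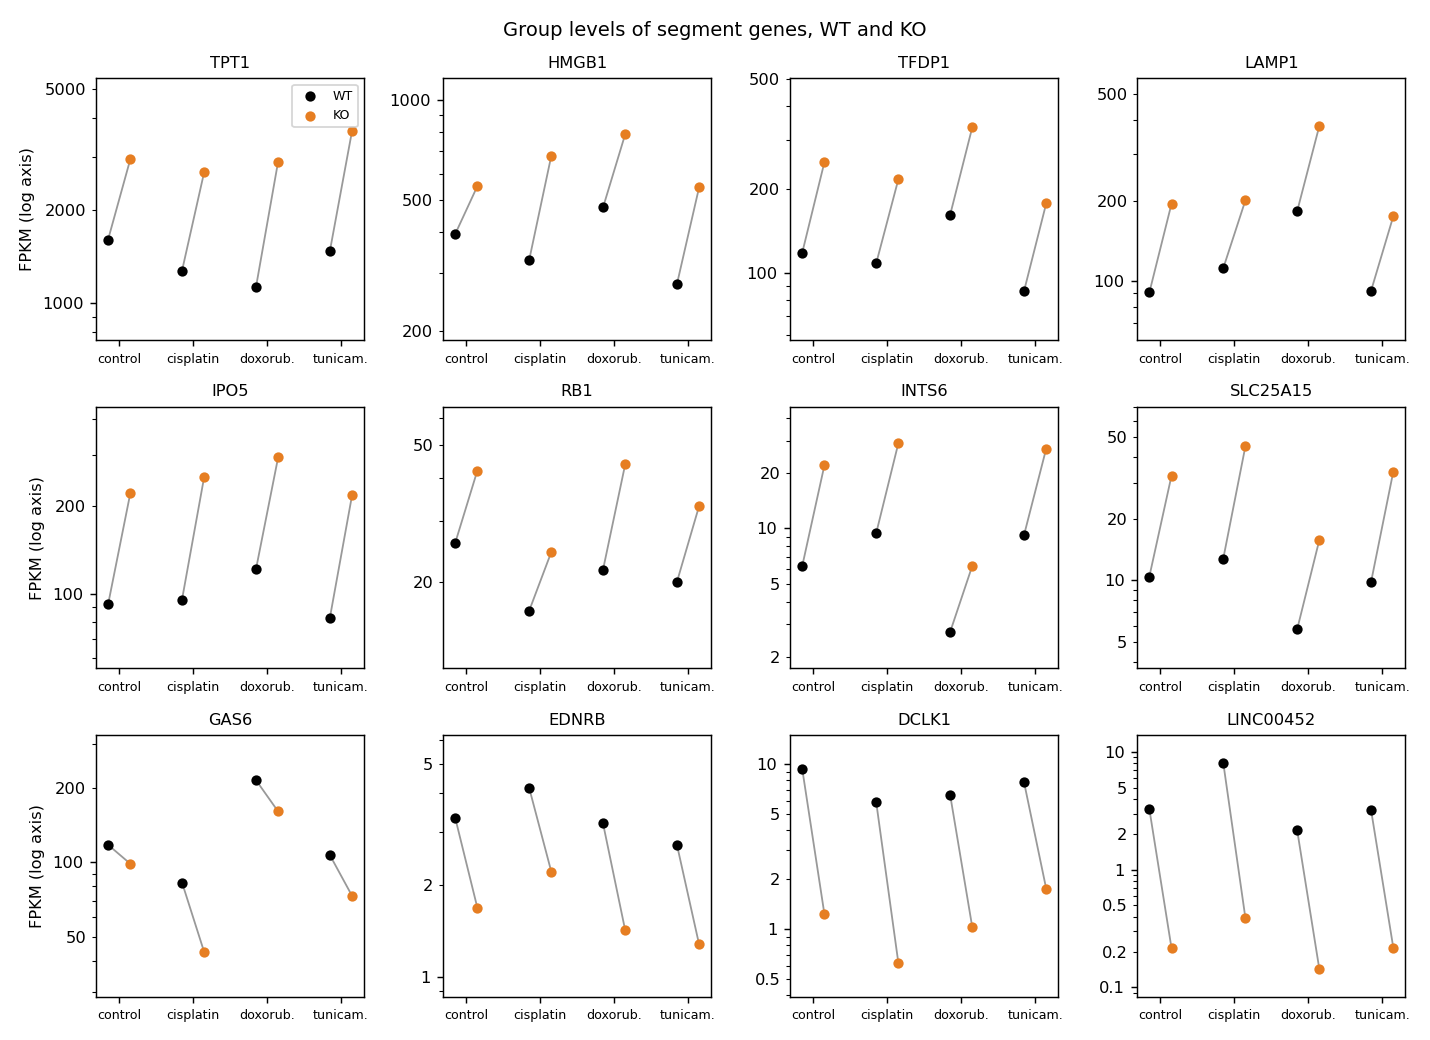
Authors' FPKM (y axis, log axis with its own range in each panel) of 12 segment genes in WT (black) and KO (orange) cells in the 4 treatments (x axis), 1 value per group, with a grey line joining each pair. The first 8 genes are higher in KO cells in every treatment, and GAS6, EDNRB, DCLK1 and LINC00452 are lower in every treatment.

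Members whose direction differed between treatments included many long genes. Of the 25 with mixed directions, 17 were protein coding, and 10 of these 17 span 100 kb or more, against 28 of the 102 protein-coding members above 1 throughout. The median span was 135 kb in the former and 43.4 kb in the latter. The former also had lower levels, with a median of the mean level of 5.51 FPKM against 17.3 FPKM in the latter. Some directions turned on a log2 ratio near 0, as for TDRD3, named after its values were seen, at -0.03 under cisplatin. The parts of span and level in the mixed directions were not tested. Among the 39 protein-coding members of 100 kb or more readable in every treatment, the ratio was below 1 in 1 in untreated cells, in 10 under cisplatin, in 7 under doxorubicin and in 4 under tunicamycin. Among the 84 shorter ones it was below 1 in 8, 6, 6 and 6. This division by span was made after the values were seen.

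Examples named after their values were seen are DIAPH3, a formin that nucleates actin, LMO7, an adherens junction protein, TBC1D4, a Rab GTPase-activating protein, DOCK9, an exchange factor for CDC42, and ATP11A, a phospholipid flippase. DIAPH3 (chr13:59665583-60163987, minus strand) had FPKM values of 35.1 in WT and 46.04 in KO in untreated cells, 10.7 in WT and 6.78 in KO under cisplatin, 13.4 in WT and 15.9 in KO under doxorubicin and 29.5 in WT and 48.2 in KO under tunicamycin. It was called higher in KO cells in 3 treatments and lower under cisplatin. LMO7 had log2 ratios of 0.28, -0.69, -0.55 and -0.51 and TBC1D4 had 0.29, -0.59, -0.6 and -0.67. DOCK9 had 0.7, -0.64, -0.64 and 0.17, and ATP11A had 1.01, -0.72, -0.07 and 0.48.

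In the segment, log2 medians under cisplatin were 1.28 for protein-coding genes under 30 kb, 1.07 from 30 to 100 kb and 0.57 from 100 kb up. In the other treatments the medians for the shortest and longest classes were 0.90 and 0.70 in untreated cells, 1.07 and 0.74 under doxorubicin, and 1.09 and 0.92 under tunicamycin. Genes of other chromosomes showed the same order under cisplatin, with 0.09, 0.00 and -0.32. The gap between the shortest and longest class under cisplatin was 0.71 in the segment and 0.41 elsewhere, and under doxorubicin it was 0.32 and 0.29. Across genes, Spearman's correlation of span and ratio in the segment was -0.11, -0.47, -0.27 and -0.17, against -0.07, -0.25, -0.22 and -0.07 elsewhere, as a description over genes that share libraries. The difference between the segment and other chromosomes in this gap was not tested.

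**Figure D5:**
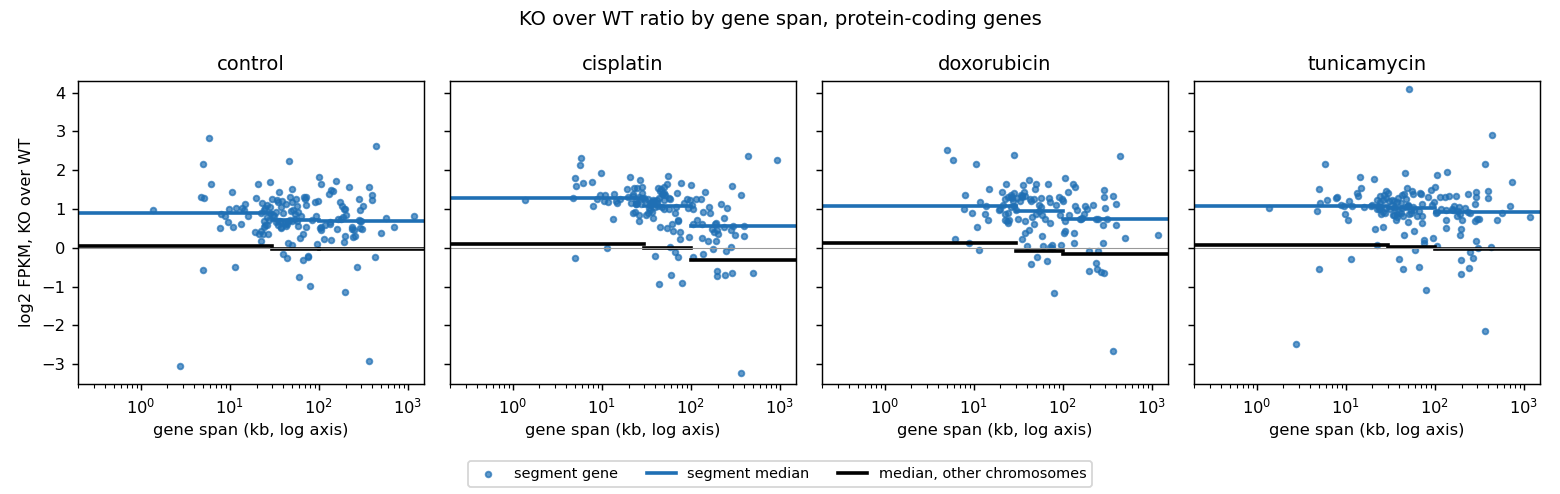
Log2 KO over WT FPKM ratio (y axis) of protein-coding segment genes (blue points) against gene span in kb (x axis, log axis), in 1 panel per treatment, with the median of each span class in the segment (blue bars) and on other chromosomes (black bars). The blue bars lie above the black ones in every class, and both fall most from left to right under cisplatin.

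The response to each drug within a genotype is a contrast that the selection did not use. Its values come from different tables, which may have been normalized separately, with 1 value per group, and allow no test. On the scale of log2 of FPKM plus 1, segment genes had a median drug over control difference of -0.14 in WT and 0.09 in KO cells for cisplatin, where genes elsewhere had 0.11 and 0.13. For doxorubicin the medians were -0.86 and -0.80, against -0.72 and -0.74 elsewhere. For tunicamycin they were -0.21 and -0.03, against -0.07 and -0.07. The segment's median thus lay below that of other genes in WT cells under each drug, and within 0.1 of it in KO cells. With genes of 5 FPKM or more the KO medians under doxorubicin were -0.89 in the segment and -0.75 elsewhere, a wider gap. Under cisplatin, segment genes of 100 kb or more had medians of -0.68 in WT and -0.83 in KO cells, against -0.40 and -0.63 for genes of that span elsewhere. The KO and WT values behind these medians are the same ones that enter the ratios above.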

How the data were processed

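The submitters' processing notes name build hg38, STAR 2.5.3, Trimmomatic 0.35, FastQC 0.11.5, Cuffdiff and Cufflinks. The annotation was not given in the sources used here, nor were tool roles or the strand setting. The authors deposited 4 tables, 1 per treatment, with 1 FPKM value per group made from both replicates. WT and KO columns were assigned from the group codes in the tables and the order of names on them. The log2 values the authors deposited are KO over WT without a pseudocount and matched recomputation to 4.64e-05 in tested genes. The score the authors deposited, their test statistic, was not used. The p-values and q-values the authors deposited were used as they stand, and no p-value was computed here.

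The members and all lists were chosen with earlier results of these data known. Ratios were computed with Python 3.11.15 and pandas 2.3.3 for genes of 1 FPKM or more in 1 group, and the step finder was tested on simulated data. Named genes were the 8 of largest smallest ratio, the 8 of smallest largest ratio, the 8 of highest mean level, the 4 on each side of the segment's start, the last 4 of the chromosome, up to 4 per list by mean level, and RB1, FOXO1, KLF5, IRS2, GAS6, ABCC4 and MIR17HG; others are marked in the text, and 1 gene that the rule names is not reported here. Alternatives changed the FPKM minimum, the pseudocount, the scaling, the call threshold, the gene types and the windows.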

Additional observations from a re-analysis of the deposited data

How the results depend on the processing

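Of 105 values recomputed under alternatives, 84 stayed within 0.1 on the log2 scale, 1.5 times a count or 1 Mb of a position. The bound of 1.5 times was also used for percentages and for the KO over WT ratio of FPKM shares. It is loose there, since a high percentage cannot rise by 1.5 times. The other 21 moved further. A change of direction was looked for only in log2 values whose main setting lay more than 0.1 from 0, and 0 were found. The median log2 ratio of the segment ranged from 0.60 to 0.81 in untreated cells, 0.58 to 1.18 under cisplatin, 0.43 to 1.05 under doxorubicin and 0.71 to 1.09 under tunicamycin. With a pseudocount of 0.1 and no filter on low values the medians were 0.60, 0.58, 0.43 and 0.71. With no filter they were 0.96 under cisplatin, 0.71 under doxorubicin and 0.92 under tunicamycin, and with a pseudocount of 1 they were 0.88, 0.71 and 0.90. Under doxorubicin the median was 1.01 for genes of 5 FPKM or more and, as an alternative chosen after seeing the data, 1.05 for rows that share their locus with no other row. For genes of 100 kb or more under doxorubicin it was 0.92 at 5 FPKM, also chosen after seeing the data. At 5 FPKM the members called lower were 4 in untreated cells, 8 under cisplatin, 3 under doxorubicin and 7 under tunicamycin, and with a bound of 1.5-fold they were 8 under tunicamycin. The step under cisplatin moved to 27251309 at 5 FPKM. The doxorubicin response of WT cells was -1.12 with a pseudocount of 0.1 and -1.01 at 5 FPKM. The cause of these shifts was not tested, apart from the fewer genes that a higher minimum leaves. No paired analysis was possible because the tables hold 1 value per group, and no replicate could be left out for that reason. The tables give no counts, so the depth behind low levels is unknown.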
